A study of Caenorhabditis elegans with 18 samples.

Results

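C-type lectins of Caenorhabditis elegans were followed on 18 Affymetrix arrays of wild-type N2 worms, in 258 probe sets of the 22625 in the table. A probe set was a member if its annotated gene symbols held one starting with clec-. Of these 258, 236 carried 1 symbol and stood for 220 genes, and 22 carried several symbols, so that no gene is named from them. TRF stands for a tocotrienol-rich fraction, which holds compounds of the vitamin E family. The TRF+H2O2+TRF worms (n = 4) received it before and after H2O2, beginning at hatching and ending on day 3 of adulthood, and their label does not repeat the H2O2 dose. TRF worms (n = 4) had the fraction throughout life. H2O2 worms (n = 5) spent 2 h in 0.3 mM H2O2 as L4 larvae, and control worms (n = 5) had no treatment. All 4 groups were grown at 20 °C on agar plates seeded with E. coli OP50, a food strain that is not pathogenic in routine culture. RNA came from whole worms, so that fewer cells of a type and less RNA per cell cannot be told apart. Whether replicates came from separate cultures is not stated in the labels, and p-values here rest on the spread between the arrays, which may be technical.

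C-type lectin domain proteins form one of the largest gene families of the worm. Many are secreted by the intestine or other epithelia, and sets of clec genes change their expression when worms meet bacterial or fungal pathogens, which makes them common readouts of immune responses. Few have a known ligand, and a C-type lectin-like fold does not by itself mean that a protein binds sugar. Transcription of part of the family depends on the PMK-1 p38 kinase cascade, on insulin signalling through DAF-16 and on other regulators of epithelial immunity.

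Most lectin probe sets were dim. Probe sets were tested where their mean log2 signal reached the 40th percentile of the table, which 80 of the 258 lectin probe sets did (31%), against 60% of all probe sets other than array controls. The tested sets covered 66 genes named by 73 probe sets, with 7 further sets of several symbols, and the other 178 were not tested. Their geometric mean signals over the 18 arrays ran from 1.63 to 46.5 with a median of 12.5. Just inside the threshold lay clec-61 at 50.03 and clec-184 at 51.8, and just outside it clec-11 at 46.5 and clec-139 at 46.4. Of the 80 tested sets, 29 have a name suffix by which Affymetrix marks probes that may match similar transcripts, so their signal may include a related gene. Tested lectins varied more between arrays than the table did, with a median SD of 0.44 in log2 signal over the 18 arrays, against 0.31 over all 13529 tested probe sets. They were also dimmer, with a median signal of 267 against 401, and the SDs were not matched for signal. The worms' intestine markers were present: all 12 of the list lay above the filter, and their mean log2 signal ran from 10.6 to 10.9 in TRF+H2O2+TRF, 10.6 to 10.8 in TRF, 10.5 to 11.1 in H2O2 and 10.5 to 10.9 in control arrays. A list of sperm transcripts differed much more between single arrays, with 23 of its 28 genes on the array above the filter and mean log2 signals of 6.98 to 9.21 in TRF+H2O2+TRF, 6.39 to 9.97 in TRF, 6.77 to 9.56 in H2O2 and 6.96 to 9.87 in control arrays.

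TRF worms were compared with control worms to ask what the supplement does without the oxidant. No lectin passed an adjusted p under 0.05 (limma with Benjamini-Hochberg adjustment over all 13529 probe sets), where 1 probe set of the table passed (0.00739%). At an unadjusted p under 0.05, 7 lectin probe sets were higher in TRF worms (2.12% of all tested probe sets were) and 10 were lower (1.38% were), together 21.2% of the 80 against 3.50% of the table. The methods' t-test gave 6 higher and 8 lower. Groups that did not overlap were seen in 3 higher lectin probe sets (0.54% of all tested) and 4 lower ones (0.643%). By gene, 5 were higher and 8 lower, and 12 of the 17 probe sets were still under 0.05 without TRF replicate 4, where 4 were higher and 9 lower.

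Of the 66 tested lectin genes, 29 had a higher mean in TRF worms and 37 a lower one. The 5 that were higher at an unadjusted p under 0.05 (limma) had signals 1.55 to 3.18 times those of control worms. For clec-70, TRF arrays read 228, 155, 122.03 and 136, against 62.01, 50.5, 55.95, 62.1 and 24.1 in control arrays. The lowest TRF array lay above the highest control array, and control replicate 5 was far below its group. The log2 fold change was 1.67 ± 0.31 (SE, limma adjusted p = 0.325). Another gene, clec-5, read 874, 1381, 443 and 1121 in TRF arrays and 409.9, 493, 304, 354 and 129.8 in control arrays. TRF replicate 3 lay among the control values, and the log2 fold change was 1.51 ± 0.39 (SE, limma adjusted p = 0.995). Signals of clec-210 were 99.97, 203, 269 and 238 in TRF arrays and 46.8, 60.96, 50.2, 194 and 81.2 in control arrays. Control replicate 4 lay within the TRF range, the other four below it, and the log2 fold change was 1.34 ± 0.42 (SE, limma adjusted p = 0.995).

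For clec-10, TRF arrays read 123, 95.9, 73.7 and 150.0, against 67.5, 70.3, 64.5, 69.5 and 71.02 in control arrays. The control arrays lay close together and below all TRF arrays, with a log2 fold change of 0.63 ± 0.23 (SE, limma adjusted p = 0.995), and a second probe set of the gene was also higher, by 0.82. For clec-47, TRF arrays read 1049, 1099.8, 2305 and 2028 and control arrays 944, 855, 457, 1387 and 1054. TRF replicates 3 and 4 were the highest of these 9 arrays, and TRF replicates 1 and 2 lay within the control range. Its log2 fold change was 0.78 ± 0.32 (SE, limma adjusted p = 0.995).

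The 8 lectin genes that were lower at an unadjusted p under 0.05 (limma) had signals at 0.552 to 0.794 times those of control worms. The probe set with the smallest p of the family was that of clec-65, which read 2286, 2333, 2874 and 2742 in TRF arrays, against 3487, 4181, 3965, 4435 and 3615 in control arrays. All 4 TRF values lay below all 5 control values, and the log2 fold change was -0.62 ± 0.11 (SE, limma adjusted p = 0.301). A second clec-65 probe set was lower as well, at -0.49, with overlapping groups. For clec-66, the neighbour of clec-65, TRF arrays read 553, 526, 610.4 and 362 and control arrays 921, 711, 1523, 889 and 718. These groups were also apart, with the control spread set by replicate 3, and the log2 fold change was -0.86 ± 0.23 (SE, limma adjusted p = 0.995). Further along the same stretch, clec-62 read 2971, 3714, 2466 and 3261 in TRF arrays and 3458, 4485, 4905, 5212 and 3447 in control arrays. Its groups overlapped, with a log2 fold change of -0.47 ± 0.16 (SE, limma adjusted p = 0.995). The bright clec-63 read 11202, 10717, 10047 and 9638 in TRF arrays, against 11955, 12235, 17578, 13742 and 10811 in control arrays. Only the lowest control array reached the TRF range, and the log2 fold change was -0.33 ± 0.12 (SE, limma adjusted p = 0.995).

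These 4 genes lie in 1 stretch. In the RefSeq annotation of WBcel235, clec-62, clec-63, clec-64, clec-65 and clec-66 are 5 consecutive genes on chromosome II, and clec-64, whose signal stayed between 1.76 and 9.31, was the only one not tested. The probe set of clec-62 and both of clec-65 carry the suffix for probes that may match similar transcripts. Their signals may therefore include a related gene, while the probe sets of clec-63 and clec-66 lack the suffix. Runs of neighbouring lectin genes are common: 125 of the 239 annotated clec genes sit in 41 runs of 2 or more, the longest of 13. The higher lectins did not share a run. In a stretch of 5 lectin genes on chromosome IV, clec-70 lies between clec-68 and clec-71 with clec-174 at the end, and the signals of clec-174 were 1421, 953, 352 and 778 in TRF arrays and 1162, 1074, 1093, 959.5 and 418 in control arrays. There TRF replicate 3 and control replicate 5 were low and the groups overlapped.

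Outside the stretch on chromosome II, clec-186 read 2016, 2865, 2236 and 2603 in TRF arrays, against 3151, 4046, 4316, 3913 and 3165 in control arrays. The groups were apart, with a log2 fold change of -0.61 ± 0.14 (SE, limma adjusted p = 0.692). For clec-150, TRF arrays read 2171, 2471, 1433 and 2259.5 and control arrays 2895, 2641, 2861, 3455 and 2554. These too did not overlap, at a log2 fold change of -0.49 ± 0.16 (SE, limma adjusted p = 0.995), while a second probe set of the gene, with overlapping groups, was at -0.32 (unadjusted p = 0.226, limma). The gene clec-85, known as a target of the PMK-1 p38 pathway, read 2334, 1939, 2602 and 3043 in TRF arrays and 3504, 2655, 4598, 5072 and 3385 in control arrays. Control replicate 2 lay within the TRF range, and the log2 fold change was -0.61 ± 0.19 (SE, limma adjusted p = 0.995). The last, clec-50, read 8678, 9989, 8761 and 9624 in TRF arrays, against 10455, 13523, 12979, 12314 and 9809.9 in control arrays. Its groups met at the edge, TRF replicate 2 being above control replicate 5, and its log2 fold change was -0.34 ± 0.11 (SE, limma adjusted p = 0.995).

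**Figure D1:**
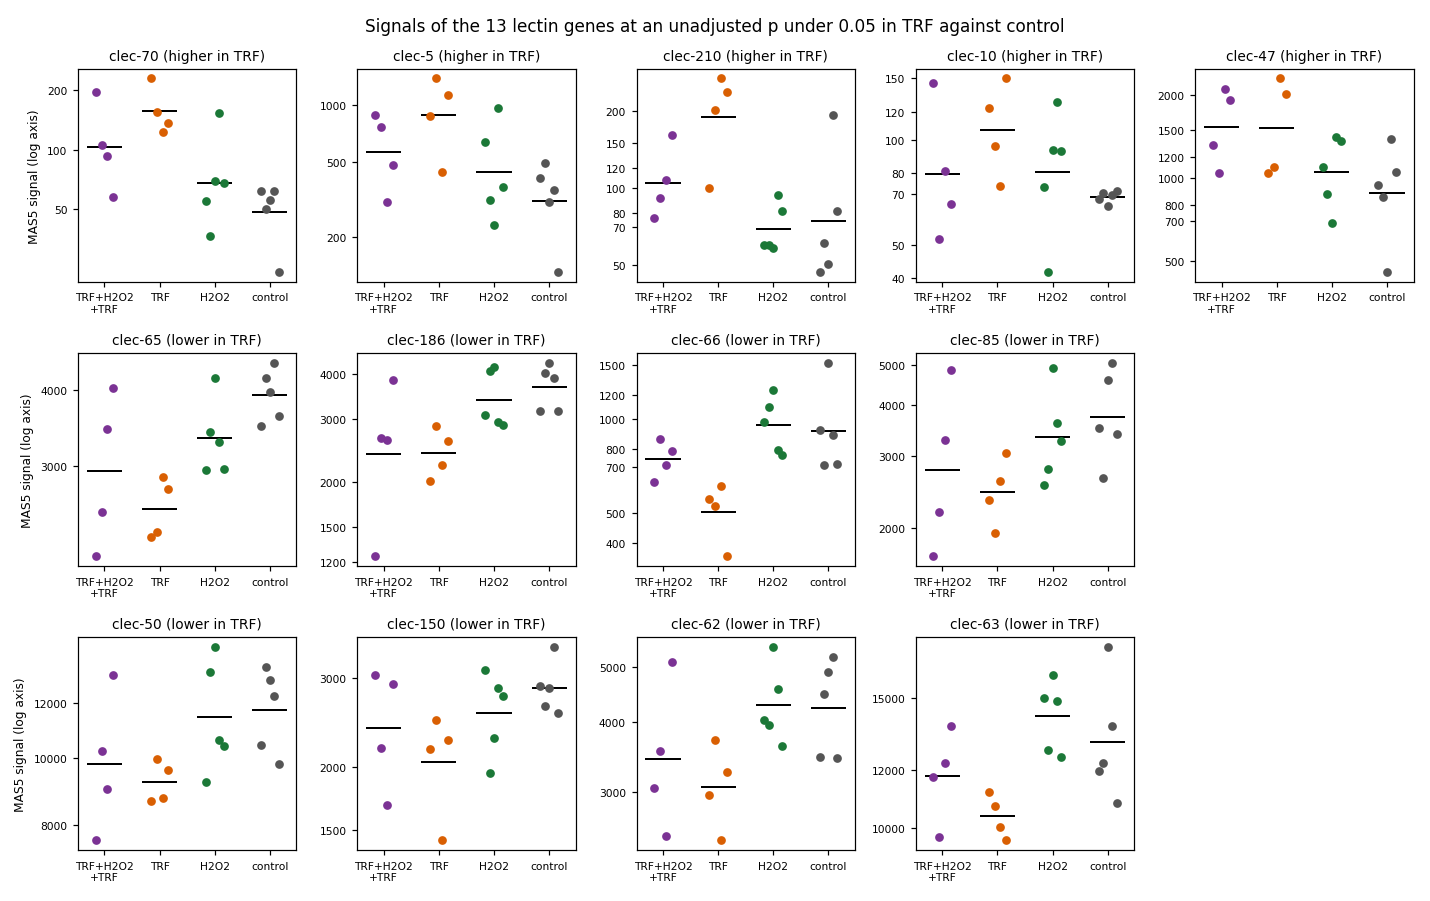
MAS5 signals (log axis, 1 panel per gene) of the 13 lectin genes at an unadjusted p under 0.05 in TRF against control, with 1 point per array and lines at the geometric means of TRF+H2O2+TRF (n = 4), TRF (n = 4), H2O2 (n = 5) and control (n = 5). The TRF points lie apart from the control points for clec-70 and clec-10 (above) and for clec-65, clec-186, clec-66 and clec-150 (below).

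Higher and lower members differed in brightness. Among the 30 tested lectin probe sets with a geometric mean signal under 100, 19 had a higher mean in TRF worms, and 5 of the 30 (16.7%) were higher at an unadjusted p under 0.05, against 2.94% of the table in that range. Among the 24 above 1000, 18 had a lower mean (75%), and 9 of the 24 (37.5%) were lower at p under 0.05, against 2.27% of the table in that range. The whole table leaned the same way, with 32.6% of its dim and 59.1% of its bright tested probe sets lower in TRF worms. Between these bounds, which were chosen after the values were seen, 18 of 26 lectins had a lower mean in TRF worms (69.2%), against 37.1% of the table. Over all 80 the median log2 fold change was -0.09, against 0.04 over all tested probe sets, but it depends on which dim probe sets are counted: it was 0.08 with all members in and 0.07 with a filter at the 20th percentile.

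**Figure D2:**
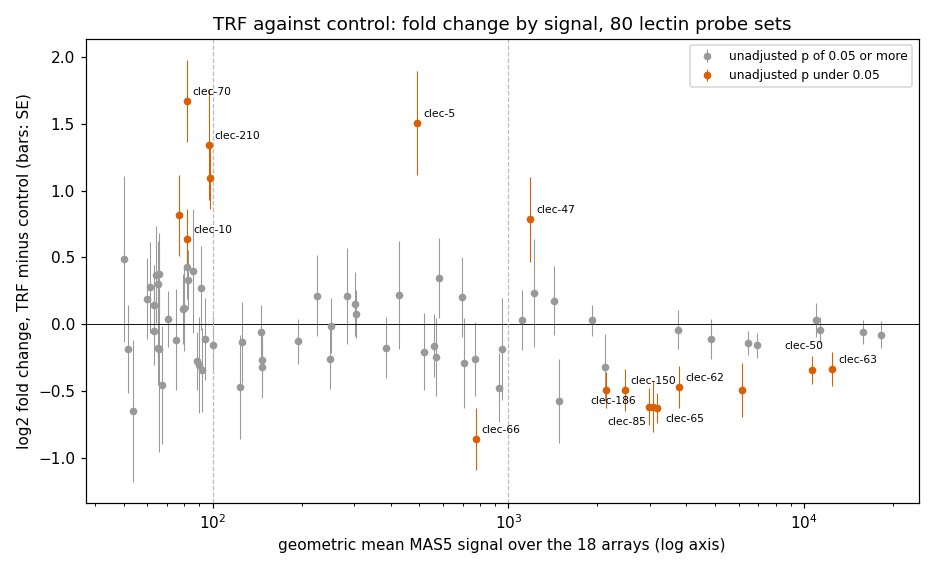
Log2 fold change in TRF against control (y axis, bars are standard errors) by geometric mean signal over the 18 arrays (x axis, log scale) for the 80 tested lectin probe sets, with dashed lines at signals of 100 and 1000. Points at an unadjusted p under 0.05 are orange, and of the 24 probe sets above 1000, 9 are orange and lower while 1 is orange and higher.

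Across the 18 arrays, the probe set of clec-65 was followed most closely by its own second probe set (Pearson r = 0.892), then by clec-85 (0.860) and clec-186 (0.840), and then by R09H10.3 and ZK1320.3 (0.834 each). These correlations are a description over arrays of 4 groups that share processing and differ in treatment.

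H2O2 worms were compared with control worms to ask what the oxidant does alone. In this comparison none of the 80 lectin probe sets passed the adjusted threshold (0% of the table did), and none was under an unadjusted p of 0.05 in either direction, against 1.39% of the table higher and 0.954% lower. The methods' t-test gave 1 higher and 0 lower, and 3 were higher without control replicate 3 or without control replicate 4. By their means, 50 lectin probe sets were higher (62.5%, against 49.5% of the table) and 30 lower in H2O2 worms. The median log2 fold change was 0.06, against -0.0019 over all tested probe sets. Under a signal of 100, 36.7% of lectins had a lower mean, against 38.7% of the table in that range. From 100 to 1000 the shares were 26.9% and 53.3%, and above 1000 they were 50% and 52.9%.

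Arrays with the same replicate number deviated together in H2O2 and control worms, so the comparison was also made within the 5 pairs. With the replicate number as a block, 10 lectin probe sets were higher at an unadjusted p under 0.05 (5.70% of all tested probe sets were) and 2 were lower (3.81% were), and the smallest adjusted p of a lectin was 0.309. The genes named from these were chosen after their values were seen. A lectin for which binding to Serratia marcescens has been reported, clec-49, read 744, 649.8, 1022, 1247 and 994 in H2O2 arrays and 735, 441, 827, 1057 and 737 in control arrays. It was higher in 5 of 5 pairs, with a log2 fold change of 0.31 ± 0.11 (SE, limma adjusted p = 0.38 with the block). For clec-42, one of the lectins with a role in defence against Bacillus thuringiensis, H2O2 arrays read 149.8, 78.2, 94.3, 119.18 and 61.9 and control arrays 82.8, 63.01, 68.98, 93.6 and 28.02. Each H2O2 array exceeded its partner, by 0.31 to 1.11 in log2 signal, and the log2 fold change was 0.61 ± 0.21 (SE, limma adjusted p = 0.382 with the block). For clec-78 the block gave 0.45 ± 0.20 (SE, limma adjusted p = 0.511) and 5 of 5 pairs higher, while another probe set of the gene was at -0.32. In the other direction clec-266 read 9355, 13499, 10945, 9326 and 7359 in H2O2 arrays, against 10001, 14170.5, 14028, 10428 and 10079.7 in control arrays. It was lower in 5 of 5 pairs, with a log2 fold change of -0.23 ± 0.07 (SE, limma adjusted p = 0.316 with the block). Other genes under 0.05 had mixed pairs. Among them clec-65 was lower in 4 of 5, at -0.24 ± 0.08 (SE, limma adjusted p = 0.395 with the block). Higher in 4 of 5 pairs were clec-48, clec-196 and clec-174, and clec-264 was higher in 3 of 5. Over the family, all pairs pointed one way for 8 of the 80 lectin probe sets (10%), 6 higher and 2 lower in H2O2 worms, against 9.85% of the table with all pairs one way.

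TRF+H2O2+TRF worms were compared with H2O2 worms to ask what the supplement does around the oxidant. Of the lectin probe sets 0 passed the adjusted threshold (0% of the table did), 1 was higher at an unadjusted p under 0.05 (1.09% of the table) and 3 were lower (1.14%), and the groups were apart for 0 lectin probe sets (0.362% of the table higher and 0.599% lower). The methods' t-test gave 1 higher and 0 lower. Leaving out single arrays gave 0 to 6 higher (6 without H2O2 replicate 4) and 0 to 8 lower (0 without H2O2 replicate 3, 8 without TRF+H2O2+TRF replicate 4). The higher gene was clec-47, with 1319.7, 1043, 2112 and 1917 in TRF+H2O2+TRF arrays and 1102, 881, 687, 1413 and 1367 in H2O2 arrays. TRF+H2O2+TRF replicates 3 and 4 lay above all H2O2 arrays and replicates 1 and 2 among them, and the log2 fold change was 0.55 ± 0.25 (SE, limma adjusted p = 1). Of the lower ones, clec-63 read 11717, 9754, 12248 and 13728 in TRF+H2O2+TRF arrays and 14975, 12748, 16098, 14850.1 and 12475 in H2O2 arrays. Only TRF+H2O2+TRF replicate 4 lay within the H2O2 range, and the log2 fold change was -0.27 ± 0.11 (SE, limma adjusted p = 1). For clec-258, TRF+H2O2+TRF arrays read 72.5, 94.7, 42.04 and 53.01 and H2O2 arrays 66.1, 135, 166, 99.99 and 87.7. Its log2 fold change was -0.74 ± 0.32 (SE, limma adjusted p = 1), and the groups overlapped. The same held for clec-56, with 325, 307, 272 and 514 in TRF+H2O2+TRF arrays, against 586, 447, 433, 550.2 and 389 in H2O2 arrays, and a log2 fold change of -0.47 ± 0.21 (SE, limma adjusted p = 1).

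The lectins chosen on TRF against control can be read in this comparison, which uses none of the same arrays. The 7 probe sets that were higher in TRF worms had a higher mean in TRF+H2O2+TRF than in H2O2 worms in 6 cases (85.7%), against 84.0% of the 287 probe sets of the table chosen the same way. The 10 that were lower in TRF worms had a lower mean in TRF+H2O2+TRF worms in 10 cases (100%), against 69.5% of 187. These 10 are not separate observations, as they include both probe sets of clec-65 and its tested neighbours on chromosome II. Signals of clec-85 and clec-186 also followed clec-65 across the arrays. Of the 10, 9 have a signal above 1000, where 56.5% of the table had a lower mean in TRF+H2O2+TRF than in H2O2 worms. The 69.5% was not matched for signal. The median log2 fold change was 0.40 for the 7 and -0.27 for the 10. No test was made of these shares, and arrays with the same number deviate together in TRF+H2O2+TRF and TRF and in H2O2 and control, so the 2 comparisons are not independent. For clec-65, TRF+H2O2+TRF arrays read 2127, 2515, 3447 and 4022 and H2O2 arrays 2947, 3404, 4182, 3282 and 2958. Replicates 1 and 2 of the supplemented worms lay below all H2O2 arrays, while replicates 3 and 4 exceeded all H2O2 arrays but replicate 3. For clec-70 the values were 195, 105, 92.8 and 57.8 in TRF+H2O2+TRF arrays, against 54.8, 36.6, 69.6, 153 and 67.5 in H2O2 arrays. There replicate 1 was the highest and replicate 4 lay within the lower H2O2 values. In H2O2 against control, which shares the control arrays of the choice, 4 of the 5 genes chosen as higher also had a higher mean (median log2 fold change 0.25). Of the 8 chosen as lower, 5 had a lower mean there and 3 a higher one (median -0.08).

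**Figure D3:**
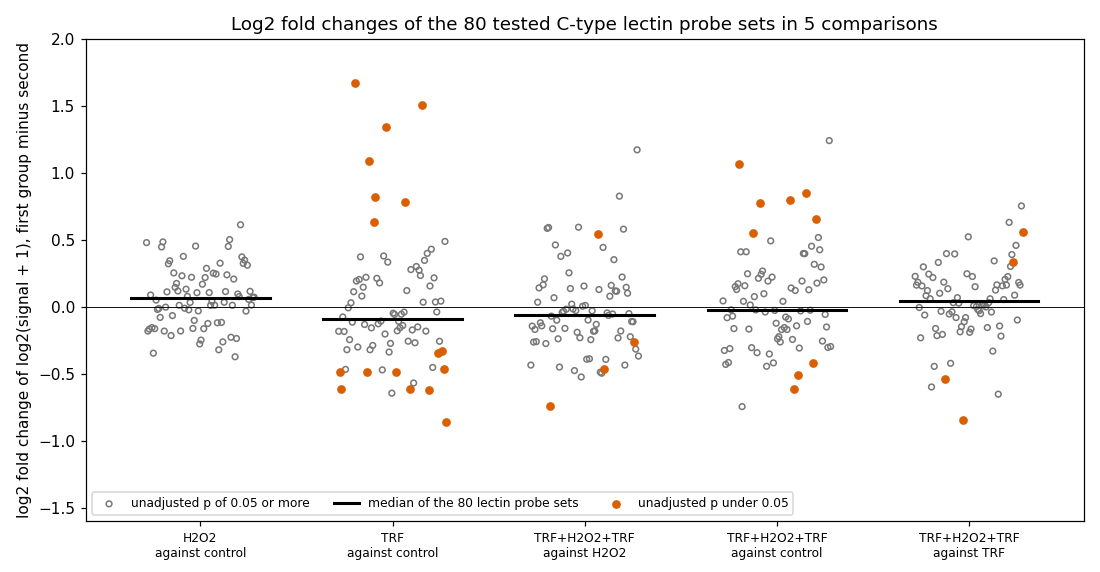
Log2 fold changes (y axis, first group minus second) of the 80 tested lectin probe sets in 5 comparisons (x axis), 1 point per probe set, with black lines at the median of the 80. Filled orange points have an unadjusted p under 0.05: none in H2O2 against control, 17 in TRF against control and 4, 9 and 4 in the 3 comparisons of TRF+H2O2+TRF worms.

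Set against control worms, TRF+H2O2+TRF worms had 0 lectin probe sets past the adjusted threshold (0% of the table), 6 higher at an unadjusted p under 0.05 (1.90% of the table) and 3 lower (0.939%). The methods' t-test gave 3 higher and 0 lower, the higher count was 1 without TRF+H2O2+TRF replicate 1, and the lower count was 0 without control replicate 2 and 9 without control replicate 5. This comparison shares its control arrays with TRF against control, so the lectins of the 2 are given side by side only. Higher genes were clec-70 at a log2 fold change of 1.07 ± 0.37 (SE, limma adjusted p = 1), clec-47 at 0.80 ± 0.29, clec-5 at 0.85 ± 0.38 and clec-31 at 0.65 ± 0.26. A second probe set of clec-10 was higher at 0.78, where the first was at 0.21. Of the higher genes, clec-31 had not been under 0.05 in TRF worms, and its signals were 146, 110.4, 81.8 and 103 in TRF+H2O2+TRF arrays, against 56.1, 51.03, 95.7, 60.02 and 89.3 in control arrays. Control replicates 3 and 5 lay within the range of the supplemented worms. Lower genes were clec-65 at -0.42 ± 0.17, clec-186 at -0.62 ± 0.25 and clec-41, a lectin with a role in defence against B. thuringiensis, at -0.51 ± 0.22 (adjusted p = 1 for each gene of this comparison, limma). Signals of clec-41 were 821, 1421, 1081 and 1954 in TRF+H2O2+TRF arrays, against 1717, 1797, 1969.9, 2158 and 1380.2 in control arrays. Replicates 2 and 4 of the supplemented worms lay within the control range.

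TRF+H2O2+TRF worms were also set against TRF worms, both supplemented. No lectin passed the adjusted threshold (0% of the table), 2 probe sets were higher at an unadjusted p under 0.05 (0.887% of the table) and 2 lower (0.577%), and the methods' t-test gave 2 and 1. Without TRF+H2O2+TRF replicate 3 the higher count was 6, and without replicate 2 of either group the lower count was 0. The groups were apart for 1 higher probe set (0.532% of the table) and 1 lower one (0.562%). The higher one was clec-66, with 628, 866, 713 and 788 in TRF+H2O2+TRF arrays and 553, 526, 610.4 and 362 in TRF arrays. Its log2 fold change was 0.56 ± 0.19 (SE, limma adjusted p = 1). The gene clec-210 was lower, with 76.2, 91.3, 108 and 162 in TRF+H2O2+TRF arrays and 99.97, 203, 269 and 238 in TRF arrays. Its groups overlapped, at a log2 fold change of -0.85 ± 0.33 (SE, limma adjusted p = 1). Same-numbered arrays paired here too, and within the 4 pairs 8 lectin probe sets were higher (3.28% of the table) and 5 lower (3.18%) at an unadjusted p under 0.05. Among them, chosen after their values were seen, clec-48 was higher and clec-70 lower in 4 of 4 pairs. Their log2 fold changes were 0.39 ± 0.10 (SE, limma adjusted p = 0.541 with the block) and -0.60 ± 0.19 (SE, limma adjusted p = 0.672 with the block). All pairs pointed one way for 15% of the tested lectin probe sets (8 higher and 4 lower), against 14.9% of the table. Pairs were mixed for others under 0.05: clec-5, lower at -0.65, was higher in 1 of 4 pairs, and clec-61, higher at 0.75, in 3 of 4. With a geometric mean of 50.03 against a threshold of 47.0, clec-61 passed the filter only through its high TRF+H2O2+TRF arrays. Its place among the 8 higher probe sets is therefore a description and no support.

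Whether the TRF difference of a lectin differed between worms with and without H2O2 was tested as an interaction over the 18 arrays. The TRF given after H2O2 is part of this contrast, and the label of the TRF+H2O2+TRF group does not repeat the H2O2 dose. A dependence on H2O2 alone therefore cannot be told apart from these differences between the groups. No probe set passed the adjusted threshold (0% of the table). Of the lectins, 0 were under an unadjusted p of 0.05 in the positive direction and 1 in the negative direction (0.673% of the table), a probe set that carries several symbols.

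Lectins from reports on infected worms were listed apart. The list, from general knowledge, held 18 genes, of which clec-39 and clec-71 were under the filter, and it was written with earlier results of these data known. In TRF against control 1 of the 16 tested genes was higher at an unadjusted p under 0.05 (2.12% of all tested probe sets) and 5 were lower (1.38%), with a median log2 fold change of -0.31, against 0.04 over all tested probe sets. In H2O2 against control 0 were under 0.05 (1.39% higher and 0.954% lower in the table) and the median was 0.07, against -0.0019. In TRF+H2O2+TRF against H2O2 0 were higher (1.09% of the table) and 1 was lower (1.14%), with a median of -0.21, against 0.02. In TRF+H2O2+TRF against control 1 was higher (1.90%) and 2 were lower (0.939%), with a median of -0.07, against 0.02. In TRF+H2O2+TRF against TRF 1 was higher (0.887%) and 0 were lower (0.577%), with a median of 0.17, against -0.01. None passed the adjusted threshold in any comparison. The genes under 0.05 in TRF against control were clec-70 (higher) and clec-62, clec-63, clec-65, clec-66 and clec-85 (lower). All are described above, and the lower ones but clec-85 lie in the stretch on chromosome II. The reporter gene clec-60, which is induced by Staphylococcus aureus, was among the most variable lectins: it read 204, 69.96, 75.7 and 139 in TRF+H2O2+TRF arrays, 207, 98.4, 90.5 and 70.3 in TRF arrays, 125, 28.3, 118, 314 and 6.24 in H2O2 arrays and 94.5, 81.7, 102, 161 and 26.6 in control arrays. All 4 groups overlapped, with both extremes in the H2O2 group. Its relative clec-61 read 161, 124, 20.3 and 159 in TRF+H2O2+TRF arrays, 57.3, 68.98, 23.9 and 83.5 in TRF arrays, 19.7, 45.3, 42.7, 141 and 17.3 in H2O2 arrays and 53.02, 61.3, 26.01, 103 and 8.02 in control arrays. TRF+H2O2+TRF replicates 1 and 4 were above every array of the other groups and replicate 2 above all of them but H2O2 replicate 4, while replicate 3 lay among the low values and control replicate 5 was the lowest. A further PMK-1 target, clec-67, read 807, 719.5, 426 and 778 in TRF arrays and 939, 679, 1432, 1044 and 365 in control arrays, with the control group spanning more than the TRF group. Signals of clec-52 were 379, 243, 448 and 589 in TRF+H2O2+TRF arrays, 412, 262, 711 and 562 in TRF arrays, 223, 253, 1117, 772 and 454 in H2O2 arrays and 251, 191, 687, 701 and 397 in control arrays. The groups overlapped for clec-52, as they did for clec-4 (58.0 to 89.3, 51.8 to 99.6, 61.5 to 163 and 51.4 to 151 in the same order of groups), clec-7 (175 to 339, 152 to 181, 110.4 to 368 and 149.8 to 205) and clec-86 (48.3 to 120.4, 51.1 to 105, 46.0 to 150.4 and 49.2 to 122.01).

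**Figure D4:**
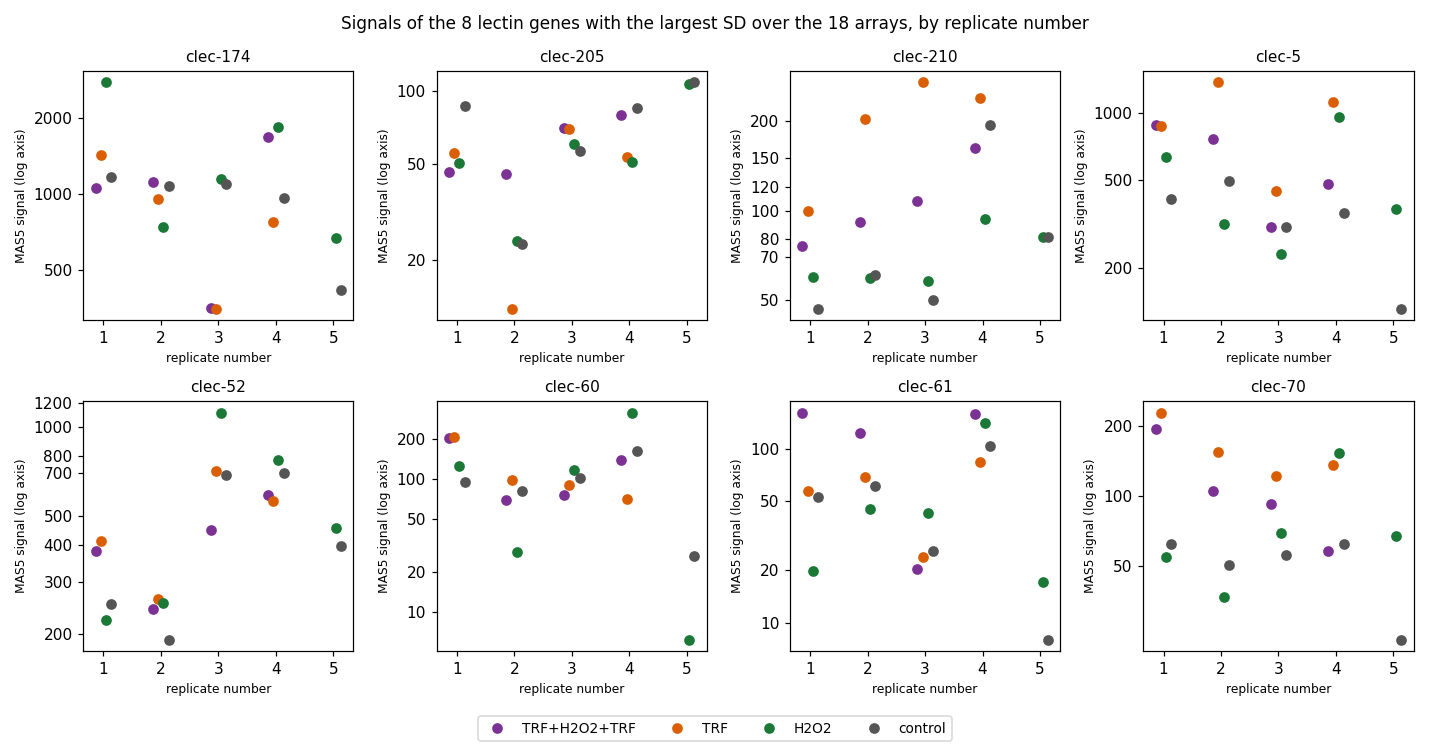
MAS5 signals (log axis) by replicate number (x axis) of the 8 lectin genes with the largest SD of log2 signal over the 18 arrays, 1 panel per gene and 1 point per array, coloured by group. Replicate 5 exists for H2O2 and control only, and 4 of the 8 genes have their lowest signal there: clec-60 in H2O2, and clec-61, clec-5 and clec-70 in control.

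Single arrays stood out over the family. Control replicate 5 was the lowest of the 18 arrays for 11 of the 80 tested lectin probe sets, and H2O2 replicate 4 was the highest for 12. The median deviation of the lectins from their own means ran from -0.15 in TRF replicate 3 to 0.28 in H2O2 replicate 4 in log2 signal, while that of all tested probe sets stayed between -0.09 and 0.06. Without control replicate 5, TRF against control had 8 lectin probe sets higher and 13 lower at an unadjusted p under 0.05, and these 21 included all 17 of the full comparison. With the mean of the sperm list as a covariate there were 7 higher and 10 lower.

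Lectins with high signals were followed too. For clec-87, TRF+H2O2+TRF arrays read 16678, 17699, 17246 and 17440.0, TRF arrays 16868, 18797, 16724 and 17007, H2O2 arrays 18301, 23119, 21223, 16943 and 18120.0 and control arrays 16203, 21034, 21399, 17243 and 16191. The groups overlapped, and replicates 2 and 3 were the highest in both H2O2 and control worms. The same pair of replicates was highest in those groups for clec-88, which ran from 9805 to 13829 over the 18 arrays. A second clec-88 probe set, which ran from 5132 to 8804, was instead highest in replicates 2 and 5 of both groups. Signals of clec-91 ran from 5138 to 8796 and those of clec-1 from 3756 to 6711, both with overlapping groups. Of the 178 untested probe sets, 69 exceeded the threshold signal of 47.0 on at least 1 array and 109 on none. The widest were clec-94, from 1.81 to 155, and clec-197, from 2.11 to 191. Both were highest in TRF replicate 2 and lowest in control replicate 5, where the sperm list had mean log2 signals of 9.97 and 6.96, and the part of sperm content in these signals was not tested.

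Regulators of epithelial immunity were read beside the lectins. Of 28 listed genes 23 were tested, and none passed the adjusted threshold in any comparison. In TRF against control 20 had a higher mean and 3 a lower one, with a median log2 fold change of 0.19, against 57.6% with a higher mean and a median of 0.04 over all tested probe sets. Under an unadjusted p of 0.05 was 1 of the 23, against 2.12% of the table higher. This was sek-1, the kinase that activates PMK-1, at a log2 fold change of 0.31 ± 0.14 (SE, limma adjusted p = 0.995). Next came tir-1, the adaptor at the head of the same cascade, at 0.42 ± 0.20, dbl-1, a TGF-beta family ligand, at 0.60 ± 0.29 (0.29 in a further probe set), and tpa-1, a protein kinase C, at 0.36 ± 0.20. In TRF+H2O2+TRF against H2O2, 16 had a higher mean and 7 a lower one, where 54.7% of all tested probe sets had a higher mean. Under an unadjusted p of 0.05 were 2 of them, both higher as were 1.09% of the table: zip-2, a bZIP factor of the response to Pseudomonas aeruginosa, at 0.45 ± 0.17, and hlh-30, the worm's TFEB, at 0.61 ± 0.25 (adjusted p = 1 for both, limma), with a further probe set of hlh-30 at 0.15. The next were skn-1, a factor of the oxidative stress response, at 0.32 ± 0.16, with further probe sets at 0.19 and -0.067, and sma-6, a receptor of the DBL-1 pathway, at 0.43 ± 0.23. In H2O2 against control 12 had a higher and 11 a lower mean, against 49.5% of the table higher, and 0 were under 0.05 (1.39% of the table higher and 0.954% lower).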

How the data were processed

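RNA of 18 samples was measured on Affymetrix arrays. The deposited values are intensity values, MAS5 signals on a linear scale, made with Affymetrix Expression Console and MAS5 per the submitters' processing notes, which give no version. The mean signal after trimming 2% of probe sets at each end was 500.1 on every array, which shows a common scaling. Arrays correlated with the others at 0.955 to 0.971 on average, and their number limits the precision.

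Groups and replicate numbers came from the sample titles. Signals were analysed as log2(signal + 1), which understates the change of dim probe sets. The 77 array controls were left out, and a mean log2 signal under the 40th percentile excluded others, leaving 13529 of 22548 probe sets tested. Symbols came from GEO's annotation of the array. All 220 lectin genes matched RefSeq WBcel235 by Entrez ID, which was used for neighbours only. Where a gene had several probe sets, the one with the highest mean signal stands for it. The sources used here do not name the genome build of the probe sets.

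For each comparison, limma 3.58.1 (R 4.3.3) was fitted to the arrays of both groups, with lmFit and eBayes, a trended variance and two-sided p-values that were adjusted by Benjamini-Hochberg over 13529 probe sets. The unpaired test at a p of 0.05 that the series design names is called the methods' t-test. Beyond the 3 comparisons of that design, TRF+H2O2+TRF was set against the 2 other groups and an interaction was fitted. Named for each comparison were up to 12 genes per direction with the smallest p among those under an unadjusted 0.05, then the 8 genes with the highest signal, the 8 with the largest SD, the listed lectins and the 4 regulators with the smallest p. Members, lists and this rule were chosen with earlier results of these data known. The script was tested on simulated data.

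Residuals of same-numbered arrays correlated at 0.280 to 0.681 between H2O2 and control and at 0.350 to 0.686 between TRF+H2O2+TRF and TRF, so the replicate number also served as a block there. The correlation was -0.224 to 0.541 between TRF and control, 0.0216 to 0.327 between TRF+H2O2+TRF and H2O2, and -0.147 to 0.494 between TRF+H2O2+TRF and control. What the numbers stand for is not in the labels. Alternatives covered the filter, normalization, pseudocount, variance model, array weights, block, the arrays numbered 5, a sperm covariate, 1 fit of all arrays and each array left out.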

Additional observations from a re-analysis of the deposited data

Results flagged for a closer look

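Single arrays far from the rest of their group were sought on log2 signals in 132 groups of 4 or 5 arrays (33 lectin genes in 4 groups), and 7 were found, about the 1 in 20 that chance gives. For clec-70, control replicate 5 read 24.1, below the 50.5 to 62.1 of the other controls. In the TRF+H2O2+TRF group, replicate 3 read 20.3 for clec-61, where the others lay between 124 and 161. For clec-42, TRF replicate 3 read 17.3 and the other TRF arrays 55.7 to 69.0. For clec-205, TRF replicate 2 read 12.6 and the others 53.7 to 70.1. The same array was high for clec-87, at 18797, against 16724 to 17007. H2O2 replicate 4 read 5949.8 for clec-1, above the 4584 to 4756 of its group. Control replicate 5 read 418 for clec-174, below the 959.5 to 1162 of the other controls.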

How the results depend on the processing

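Lectins past the adjusted threshold numbered 0 under each of the 132 alternatives run. Of 1098 alternative log2 fold changes of named genes 1096 kept their direction and stayed on the same side of the threshold, with a lowest adjusted p of 0.14 under the replicate block in TRF against control. The 2 that turned came from further probe sets, clec-78 in H2O2 against control at -0.32 and skn-1 in TRF+H2O2+TRF against H2O2 at -0.067. Direction was partly fixed in advance, because a change of filter, variance trend or test leaves the log2 fold change as it is. Most of these genes were also chosen for a small p on the same arrays, so the 1096 are no independent test of direction. Counts at an unadjusted p under 0.05 were less stable, and 104 of 264 moved by over 1.5 times or changed from or to 0. The cause was not tested beyond what a setting itself changes (more dim probe sets without the filter, fewer arrays). In TRF against control, 7 higher became 18 without the filter and 11 at the 20th percentile, and leaving out 1 array gave 4 to 8 higher (4 without TRF replicate 4) and 9 to 13 lower. The replicate block there gave 15 lower, where numbers paired the arrays only in part (residual correlations of -0.224 to 0.541). The direction of the lectins' median turned with the filter, as given above. In H2O2 against control, 0 higher became 9 without the filter, 3 at the 20th percentile, 2 under median centring, without a variance trend and in 1 fit of all arrays, 1 with a pseudocount of 16, array weights, the sperm covariate or the methods' t-test, and 10 under the replicate block. There 0 lower became 1 without the filter and 2 under quantile normalization and the block, and leaving out 1 array gave 0 to 3 higher and 0 to 1 lower. In TRF+H2O2+TRF against H2O2, 1 higher became 0 under median centring and the sperm covariate, 3 without a variance trend and 2 without the filter, at the 20th percentile, with a pseudocount of 16, array weights, the block or without the arrays numbered 5. The 3 lower became 12 without the filter, 6 at the 20th percentile, 9 under the block, 5 without the arrays numbered 5, 1 with the sperm covariate and 0 by the methods' t-test, and leaving out 1 array gave 0 to 6 higher (6 without H2O2 replicate 4) and 0 to 8 lower (0 without H2O2 replicate 3, 8 without TRF+H2O2+TRF replicate 4). In TRF+H2O2+TRF against control, 6 higher became 3 by the methods' t-test, and 3 lower became 6 without the filter, 5 at the 20th percentile, 10 under the block, 9 without the arrays numbered 5 and 0 without a variance trend or by the methods' t-test. Leaving out 1 array there gave 1 to 9 higher (1 without TRF+H2O2+TRF replicate 1) and 0 to 9 lower (0 without control replicate 2). In TRF+H2O2+TRF against TRF, 2 higher became 5 without the filter, 4 at the 20th percentile and with the sperm covariate, 8 under the block and 1 in 1 fit of all arrays. There 2 lower became 7, 4 and 5 without the filter, at the 20th percentile and under the block and 1 by the methods' t-test, and leaving out 1 array gave 2 to 6 higher and 0 to 3 lower. In the interaction, 0 higher became 1 without the filter, at the 20th percentile and under quantile normalization and 2 under the block. There 1 lower became 10 without the filter, 5 at the 20th percentile, 4 with array weights, 2 under the block and 0 without the arrays numbered 5, and leaving out 1 array gave 0 to 2 higher and 0 to 5 lower. The arrays numbered 5 are in neither group of TRF+H2O2+TRF against TRF, so that alternative was not run there.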
